A study of Mus musculus with 44 samples.

Results

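The oogenesins Oog1, Oog2, Oog3 and Oog4 and the oocyte maturation genes Omt2a and Omt2b were followed through single two-cell mouse embryos in which maternal Dppa2 and Dppa4, or both maternal and zygotic copies, had been removed. The members were taken by gene name and were 6 of the 35269 genes in the expression table. The 44 embryos came from natural matings of C57Bl/6 mice, and each was sequenced as its own library from polyadenylated RNA after removal of the zona pellucida. WT embryos were Dppa2/4+/+ (n = 14), from Dppa2/4+/+ females and WT males. HET1 embryos were Dppa2/4+/- (n = 15), from Dppa2/4m- females and WT males, so that the maternal genes were deleted and the paternal copy was intact. HET2 embryos (Dppa2/4+/-, n = 5) and HOM embryos (Dppa2/4-/-, n = 10) were littermates from Dppa2/4m- females and heterozygous males, and the study told them apart by their Dppa2 and Dppa4 transcripts. In the Dppa2/4m- females, labelled cKO, Zp3-Cre deleted a stretch from Dppa4 exon 2 to Dppa2 exon 7 in growing oocytes, so the loss began in the oocyte and not at fertilisation. Each of the 3 crosses was represented by 2 matings, whose embryos are called litter 1 and litter 2 here: 10 and 4 WT embryos, 7 and 8 HET1 embryos, and 7 (4 HET2, 3 HOM) and 8 (1 HET2, 7 HOM) embryos of the cKO x HET cross. The number 1 or 2 is the mating number of the labels, which tie it to no animal, and is used as a name.

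A mouse oocyte stops transcribing as it matures and carries stored mRNA into the embryo. During the two-cell stage these maternal transcripts are degraded while the major wave of zygotic genome activation (ZGA) starts transcription from the embryo's own genome. Dppa2 and Dppa4 are nuclear proteins that work as a heterodimer and, in embryonic stem cells, activate Dux and other two-cell genes. The oogenesins belong to the PRAME family of leucine-rich repeat proteins, a large group of tandem gene copies in the mouse, and their mRNA is made in the oocyte. Omt2a and Omt2b are a neighbouring pair of small genes whose transcripts are known from the maturing oocyte. The comparison of embryos with and without Dppa2/4 therefore asks whether such oocyte transcripts were present at other levels when the maternal proteins, or all of the protein, were missing.

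In GRCm38, 3 oogenesins lie on chromosome 4 and 1 on chromosome 12. Oog4 (ENSMUSG00000047799) is at chr4:143437164-143450324 on the minus strand, 707232 bp from Oog3 (ENSMUSG00000050810), at chr4:144157557-144162663 on the minus strand. Oog2 (ENSMUSG00000066030), at chr4:144190719-144196934 on the plus strand, follows Oog3 after 28055 bp. Oog1 (ENSMUSG00000096576) is at chr12:87602688-87608850 on the plus strand. Omt2a (ENSMUSG00000066463), at chr9:78311972-78314796 on the minus strand, and Omt2b (ENSMUSG00000038750), at chr9:78327589-78329620 on the plus strand, are 12792 bp apart and are transcribed away from each other. All 6 genes are annotated as protein coding, and the values cover their exons.

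The 4 oogenesins start from related promoters, which is why their sequences are shown before the levels. The stretches below run from 140 bases before to 20 bases after the RefSeq start of each gene (GRCm38.p6), 5' to 3' along the gene. Capitals mark the 6 runs of at least 8 bases that are present on this strand in the promoters of all 4 oogenesins: AAATCTGAA, CTGAAAAT, GAGACTCA, GGGTGTGGC, ACAAAGGGA and TTCAGCTGAAA.
Oog1, chr12:87602525-87602684, plus strand: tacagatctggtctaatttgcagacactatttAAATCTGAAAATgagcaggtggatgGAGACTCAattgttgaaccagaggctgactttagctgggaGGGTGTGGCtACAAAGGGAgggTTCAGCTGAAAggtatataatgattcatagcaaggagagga
Oog2, chr4:144190577-144190736, plus strand: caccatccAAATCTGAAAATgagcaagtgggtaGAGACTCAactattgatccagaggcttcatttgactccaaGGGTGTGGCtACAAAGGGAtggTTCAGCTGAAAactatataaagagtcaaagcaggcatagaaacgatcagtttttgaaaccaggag
Oog3, chr4:144162632-144162791, minus strand: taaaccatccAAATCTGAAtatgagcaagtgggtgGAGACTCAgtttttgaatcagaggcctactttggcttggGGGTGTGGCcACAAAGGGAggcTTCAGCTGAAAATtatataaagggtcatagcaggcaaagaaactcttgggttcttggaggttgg
Oog4, chr4:143450305-143450464, minus strand: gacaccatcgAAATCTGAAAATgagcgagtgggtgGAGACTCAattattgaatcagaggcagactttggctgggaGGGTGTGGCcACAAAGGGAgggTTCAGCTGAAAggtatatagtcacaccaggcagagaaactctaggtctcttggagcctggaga
The longest shared run, TTCAGCTGAAA, holds the E-box letters CAGCTG and begins 43 to 45 bases before the start in Oog2, Oog3 and Oog4 and 21 bases before it in Oog1. It was found, on either strand, in 17 of 32851 promoters of the same length (0.0517%). Shortly behind it, each of the 4 genes has TATATA, letters of a TATA box, which 5.67% of all promoters hold on either strand. The run GGGTGTGGC begins 67, 66 and 65 bases before the start in Oog2, Oog3 and Oog4 and 43 before it in Oog1, and was present in 1.35% of promoters. All 6 runs occurred together in 6 promoters, those of the 4 oogenesins, of Gm2042 and of Pramel26. They are not 6 separate sites. CTGAAAAT overlaps AAATCTGAA in Oog1, Oog2 and Oog4. In Oog3 it overlaps TTCAGCTGAAA instead and begins 39 bases before the start. Between pairs of the 300-base oogenesin promoters, 76.1% to 84.4% of aligned bases were identical with gaps left out, and 64.8% to 76.7% of the whole alignment. These matches describe letters in a window and say nothing of what binds there. Positions are counted from the RefSeq start, which in Oog1 lies before the gene span given above (stretch to 87602684, span from 87602688).

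The promoters of Omt2a and Omt2b are shown because the transcripts of this pair moved together more closely than any others here. Capitals mark CANNTG, the E-box letters, which 72.3% of all promoters hold. The RefSeq starts of both genes lie inside the gene spans given above.
Omt2a, chr9:78314029-78314188, minus strand: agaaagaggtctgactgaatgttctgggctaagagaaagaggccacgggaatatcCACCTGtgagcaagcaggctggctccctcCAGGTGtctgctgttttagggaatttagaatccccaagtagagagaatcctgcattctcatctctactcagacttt
Omt2b, chr9:78327890-78328049, plus strand: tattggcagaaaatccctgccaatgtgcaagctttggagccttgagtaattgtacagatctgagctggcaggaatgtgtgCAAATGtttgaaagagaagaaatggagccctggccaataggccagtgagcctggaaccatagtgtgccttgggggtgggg
No run of 10 or more bases was shared between the 300-base promoters of the pair on the same strand, and 49.1% of their aligned bases were identical. None of the 6 oogenesin runs was in either promoter.

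The transcripts of these genes are also alike, and this can limit what was counted. Of all 75-base windows in the longest coding transcript, 82.0% of those of Oog1 occurred in a transcript of another gene, mainly Gm2042 (80.4%) and Gm10436 (40.1%). For Oog2 the share was 31.0%, mostly with Gm13084, for Oog3 13.6%, with Gm4350, and for Oog4 no window was shared. Omt2a shared 23.2% of its windows with Omt2b, and Omt2b shared 42.1% with Omt2a. Reads with a mapping quality under 20 had been dropped, so reads that fit such copies equally well may have been lost. The level of Oog1 in particular may rest on the few stretches that are its own. How many reads were lost was not counted. The copies were themselves present: Gm10436 had a mean of 9.26 log2 RPM, Gm2042 of 6.79 and Gm13084 of 6.61. The coding sequences of the oogenesins were identical at 74.0% (Oog2 and Oog4) to 82.5% (Oog1 and Oog3) of aligned bases, and those of Omt2a and Omt2b at 81.1%.

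Before the results, 3 facts of the whole series bear on them. Libraries held 247667 to 3163026 reads, and the median was 1770010 in WT, 528166 in HET1, 1108889 in HET2 and 803369 in HOM embryos, so 3 reads correspond to 0.948 to 12.1 RPM. Dppa2 had 184 to 2144 reads in WT, 11 to 489 in HET1, 19 to 814 in HET2 and 0 to 7 in HOM embryos, and Dppa4 79 to 499, 3 to 133, 27 to 94 and 0 to 5, but since HET2 and HOM were assigned from these transcripts this is no independent check of them. Oocyte markers (Zp3, Gdf9, Bmp15, Dppa3, Nlrp5) summed to 895 to 4132 RPM and two-cell markers (Zfp352, Zscan4c, Zscan4d, Tcstv3, Tmem92, Sp110, Usp17lc) to 235 to 1715 RPM. The 11 cumulus and granulosa cell markers summed to at most 26.7 RPM and the 4 sperm markers to at most 0.706 RPM. Of the 5 markers of later embryo lineages, Gata4 was at a mean of 5.85 log2 RPM and the highest of the others, Sox17, at 0.25.

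Omt2b, Omt2a and Oog3 were among the most abundant transcripts of the two-cell embryo. By mean log2 RPM they ranked 8, 12 and 13 of 35269 genes, and the 6 members together took 0.97% ± 0.50 (SD, n = 44) of all reads, from 0.241% to 2.28%. RPM scales a gene's reads to the total reads of its embryo, and a lower value can stand for fewer copies of a transcript or for more of all other RNA, which cannot be told apart here. On the per-length scale of RPKM (RPM per kilobase of exon), Omt2b had a mean level of 2601 ± 1652, Omt2a of 1951 ± 987, Oog3 of 1392 ± 767, Oog1 of 49.7 ± 38.2, Oog2 of 32.2 ± 19.1 and Oog4 of 14.8 ± 13.4 (SD, n = 44). Oog3 thus stood apart from its 3 relatives and was above Oog1 in 44 of 44 embryos, by 4.96 ± 0.83 on the log2 RPKM scale (SD). The lengths were not corrected for windows shared with other genes, which made up 82% in Oog1 and 13.6% in Oog3. Their part in this gap was not tested. The other neighbours in the order lay closer to their spread: Omt2b was above Omt2a in 36 of 44 embryos (0.30 ± 0.29), Omt2a above Oog3 in 35 (0.485 ± 0.70), Oog1 above Oog2 in 29 (0.57 ± 1.11) and Oog2 above Oog4 in 38 (mean 1.67, less than 1 SD). Only the step from Oog3 to Oog1 and that from Omt2b to Omt2a exceeded 1 SD, the latter barely. With the longest transcript as the length the order of the means was the same.

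**Figure D1:**
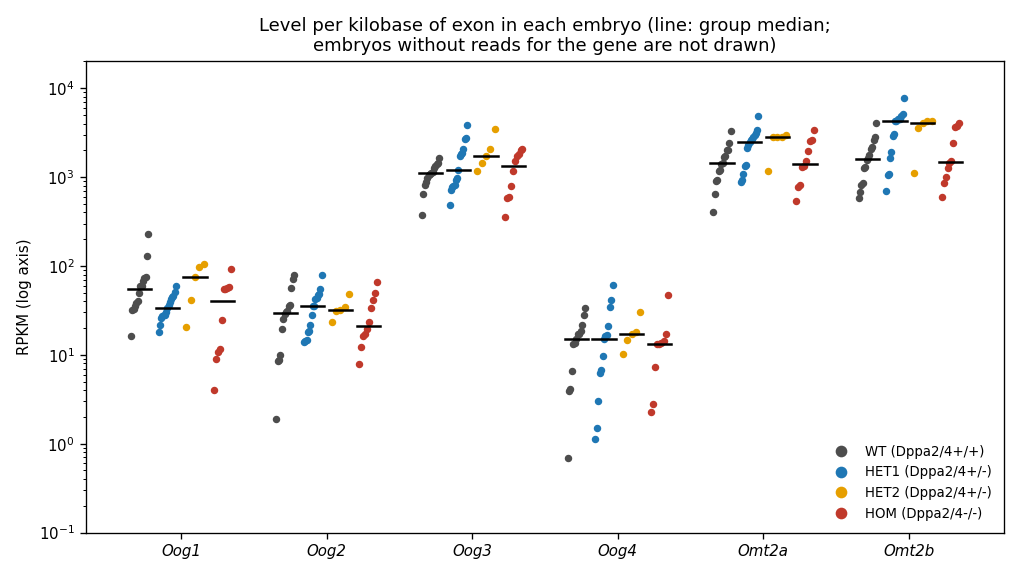
Level of each gene in each embryo in RPKM on a log axis, by group, with the group median as a line. Omt2a, Omt2b and Oog3 lie at 356.5 RPKM or more in every embryo, and Oog1, Oog2 and Oog4 at 227 or less. The lengths are not corrected for sequence shared with other genes.

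Oog1, Oog2, Oog3, Omt2a and Omt2b had reads in all 44 embryos. Oog4 had none in 4, namely WT-k, HET1-a, HET1-c and HOM-h, where 3 reads would correspond to 2.12 to 3.65 RPM, so such levels were not detectable there. The deposited table gives such genes the value of 0.9 read, which lies higher on the log2 scale the shallower the library.

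For Oog3, the abundant oogenesin, no difference between WT embryos and another group passed the test. Its lowest, median and highest values were 9.43, 11.00 and 11.56 log2 RPM in WT, 9.84, 11.12 and 12.82 in HET1, and 9.38, 11.28 and 11.91 in HOM embryos, while the 5 HET2 embryos had 11.09, 11.39, 11.65, 11.92 and 12.67. All 4 groups overlapped. Against WT, the difference in log2 RPM was 0.37 ± 0.24 in HET1 (SE, limma adjusted p = 0.248), 0.84 ± 0.34 in HET2 (adjusted p = 0.411) and 0.08 ± 0.27 in HOM embryos (adjusted p = 0.872).

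Oog1, whose protein is known to enter the nuclei of the early embryo, was the member that lay furthest from WT in HOM embryos. Its lowest, median and highest values were 5.30, 7.05 and 9.12 log2 RPM in WT, 5.48, 6.38 and 7.20 in HET1 and 3.28, 6.49 and 7.84 in HOM embryos, and 5.67, 6.67, 7.53, 7.89 and 8.01 in the HET2 embryos. The HOM values below the WT range all came from litter 2 (3.28, 4.45, 4.72 and 4.84 log2 RPM), and the 3 HOM embryos of litter 1 were at 7.08, 7.09 and 7.84. The difference from WT was -1.10 ± 0.38 in HOM (limma adjusted p = 0.116, unadjusted p = 0.0058), -0.68 ± 0.34 in HET1 (adjusted p = 0.134) and 0.11 ± 0.48 in HET2 embryos (adjusted p = 0.976). Without litter 1 of the cKO x HET cross the HOM difference was -1.69 (adjusted p = 0.0333), without litter 1 of the control cross -2.09 (adjusted p = 0.0316), and without litter 2 of the cKO x HET cross 0.29 (adjusted p = 0.890). The sign and the call of Oog1 therefore turned on which litter was in the fit.

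Oog2 and Oog4, the less abundant oogenesins, spread widely within every group. Oog2 ran from 2.25 to 7.63 log2 RPM with a median of 6.21 in WT, from 5.10 to 7.63 with 6.47 in HET1, from 5.86 to 6.91 with 6.29 in HET2 and from 4.28 to 7.34 with 5.72 in HOM embryos. Oog4 ran from -0.24 to 6.07 with a median of 4.83 in WT, from -0.66 to 6.93 with 4.25 in HET1, from 4.34 to 5.90 with 5.10 in HET2 and from 0.13 to 6.55 with 4.72 in HOM embryos, where the lowest values outside HET2 are those of embryos without reads. The groups overlapped for both genes. None of the 6 differences from WT passed the test, and the widest, 1.01 ± 0.93 for Oog4 in HET2 embryos, had a 95% interval from -0.84 to 2.86.

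Omt2a and Omt2b were the members called in HET1 embryos. Omt2a had lowest, median and highest values of 9.23, 11.03 and 12.22 log2 RPM in WT and of 10.32, 11.81 and 12.80 in HET1 embryos. Omt2b had 9.81, 11.28 and 12.61 in WT and 10.07, 12.68 and 13.55 in HET1 embryos. The groups overlapped. The HET1 differences were 0.64 ± 0.24 for Omt2a (limma adjusted p = 0.0473) and 0.94 ± 0.29 for Omt2b (adjusted p = 0.0164), so 2 of 6 members were called, against 24.7% of the 16412 genes tested (21.4% called higher), a share near that of the members. Where litter entered as a random effect, Omt2a and Omt2b differed by 0.59 ± 0.30 and 0.85 ± 0.34, and neither was called (adjusted p = 0.243 and 0.169), nor was any of the 16412 genes. The median difference of all genes tested was 0.61 log2 in this comparison, where HET1 libraries were shallower and genes without reads received a higher value. When every embryo was given the same lowest value, that median was 0.05, 4.54% of genes were called, 409 higher and 336 lower in place of 3505 and 549 (2189 and 812 after re-centring each embryo on its median), and 0 of 6 members were called. The values of Omt2a and Omt2b lie above that lowest value and their differences stayed at 0.64 and 0.94, with adjusted p = 0.204 and 0.106, so the errors and the adjustment changed and not the differences. Both had an unadjusted p under 0.05, as did 3025 of the 16412 genes with that lowest value. With limma voom on the recovered reads 0 of 6 were called, against 15.4% of all genes. An unadjusted p under 0.05 was then reached by 1 member and by 5426 genes.

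The HET1 difference in Omt2a and Omt2b lay in 1 of the 2 litters. In litter 1 of the cKO x WT cross, Omt2a was at 10.95 ± 0.55 (SD, n = 7) and Omt2b at 11.24 ± 0.81 log2 RPM, next to 10.86 ± 0.53 and 10.99 ± 0.58 in litter 1 of the control cross (n = 10). In litter 2 of the control cross Omt2a was at 9.23, 11.32, 11.79 and 12.22 and Omt2b at 9.81, 11.99, 12.11 and 12.61, so that 3 of 4 embryos lay above the means of both litters 1. In litter 2 of the cKO x WT cross they were at 12.13 ± 0.31 and 12.88 ± 0.29 (n = 8). Without litter 2 of the cKO x WT cross, HET1 and WT embryos differed by 0.01 in Omt2a (adjusted p = 0.991) and 0.06 in Omt2b (adjusted p = 0.912); without litter 1 they differed by 1.19 and 1.71. The difference also fell to 0.44 and 0.48 without litter 1 of the control cross (adjusted p = 0.483 and 0.513), and only Omt2b was called without embryo WT-k, the lowest of all 44 for both genes (0.51, adjusted p = 0.0946, and 0.83, adjusted p = 0.0276).

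No member passed the test between WT embryos and HET2 or HOM embryos. In HET2 embryos Omt2a was at 10.73, 12.01, 12.02, 12.03 and 12.10 log2 RPM and Omt2b at 10.76, 12.44, 12.62, 12.69 and 12.70, with the lowest value of both in HET2-e, the only HET2 embryo of litter 2. The HET2 difference from WT was 0.84 ± 0.34 in Omt2a (limma adjusted p = 0.414) and 1.07 ± 0.40 in Omt2b (adjusted p = 0.378). Of the 6 members 0 were called, with 0.0122% of all genes called. An unadjusted p under 0.05 was reached by 3 members (Oog3, Omt2a, Omt2b) and by 1565 of the 16412 genes tested. With litter as a random effect 0 members reached it, and 560 genes did. In HOM embryos Omt2a ran from 9.63 to 12.29 with a median of 11.02 and Omt2b from 9.85 to 12.63 with 11.15, and the differences were 0.11 ± 0.27 and 0.18 ± 0.32 (adjusted p = 0.837 and 0.758). Here 0 of 6 members and 0.0731% of all genes were called. An unadjusted p under 0.05 was reached by 1 member (Oog1) and by 3469 of the 16412 genes tested. Voom called 0 members in either comparison, and 0.0487% of all genes in HET2 and 0.0548% in HOM embryos. All 3 comparisons share the WT embryos.

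HET2 and HOM littermates, which differ in the zygotic copy of Dppa2/4 and come from the same matings, were close in the pair Omt2a and Omt2b. In litter 1, Omt2a was at 12.01, 12.02, 12.03 and 12.10 log2 RPM in the 4 HET2 embryos and at 11.88, 11.91 and 12.29 in the 3 HOM embryos, and Omt2b at 12.44, 12.62, 12.69 and 12.70 against 12.47, 12.52 and 12.63. The genotypes overlapped for both genes. With litter in the model, HOM minus HET2 was -0.05 in Omt2a (95% interval -0.51 to 0.42) and -0.02 in Omt2b (-0.48 to 0.44), and with a common lowest value the intervals were -0.75 to 0.66 and -0.78 to 0.74. The intervals were wider for the oogenesins, at -0.94 to 0.28 for Oog3, -1.76 to 0.53 for Oog1, -0.76 to 1.00 for Oog2 and -2.04 to 0.97 for Oog4. Of the 6 members 0 were called by limma, with 0.0122% of all genes called. An unadjusted p under 0.05 was reached by 0 members and by 912 of the 16412 genes tested. The comparison rests on 5 HET2 embryos, of which 4 were in litter 1.

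**Figure D2:**
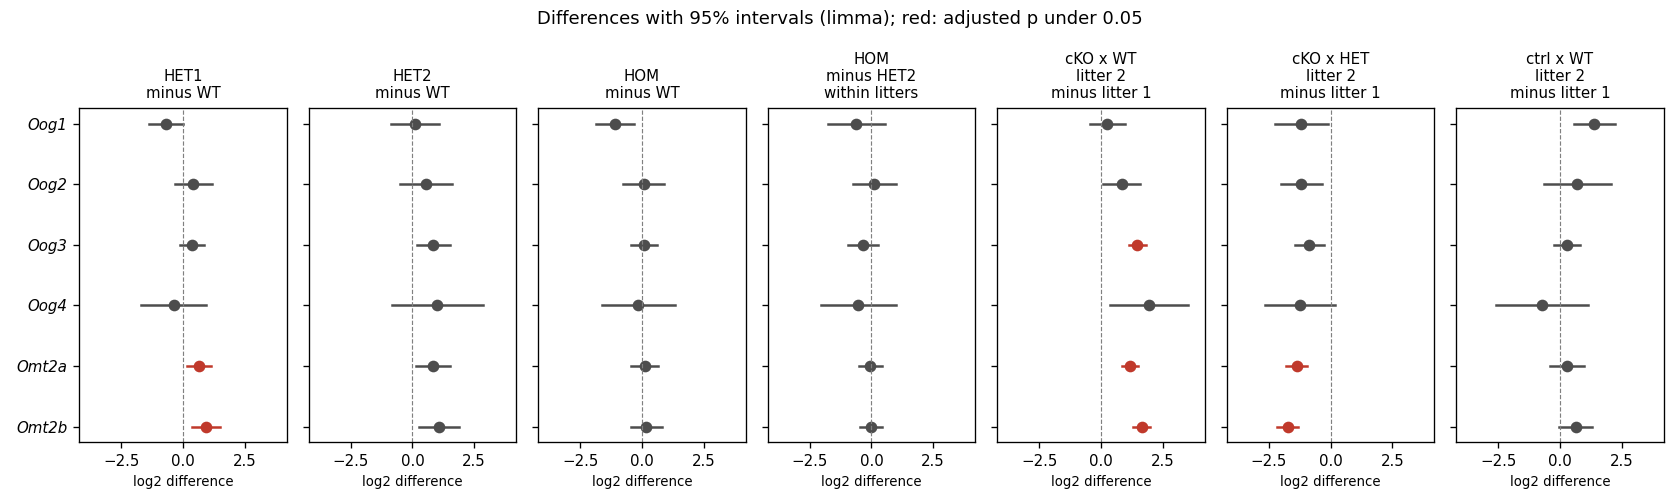
Difference in log2 RPM of each gene in the 7 comparisons, with 95% intervals from limma and calls at an adjusted p under 0.05 in red. Omt2a and Omt2b were called in HET1 embryos and between litters of both cKO crosses, Oog3 between the cKO x WT litters, and no gene between HOM and HET2 littermates.

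In the cKO x WT cross, Oog3, Omt2a and Omt2b differed between litters. Between the cKO x WT litters, whose embryos share a genotype, Oog3 was at 9.84 to 10.81 log2 RPM in litter 1 and at 11.12 to 12.82 in litter 2, Omt2a at 10.32 to 11.72 and 11.81 to 12.80, and Omt2b at 10.07 to 12.22 and 12.68 to 13.55. The litters did not overlap for these 3 genes, all higher in litter 2, nor for 3.01% of all genes tested, 0.987% with litter 2 higher. Litter 2 was higher by 1.47 ± 0.17 in Oog3 (limma adjusted p = 1.64e-09), by 1.19 ± 0.16 in Omt2a (adjusted p = 2.35e-07) and by 1.64 ± 0.18 in Omt2b (adjusted p = 5.59e-10), so that 3 of 6 members were called, all higher, where 15.1% of all genes were called and 4.55% were called higher. Over all genes the split was 746 higher and 1735 lower, or 1359 and 1060 after re-centring each embryo on its median, with which 5 members were called, all higher. An exact two-sided permutation test of the embryos gave p = 0.000311 for each, the smallest p that 7 against 8 embryos allow. The SE takes in the spread limma borrows from other genes; with a common lowest value the same 3 members were called with wider errors (SE 0.35 for Omt2b, adjusted p = 0.00763), among 12.7% of all genes. Oog4 (1.95 ± 0.79, adjusted p = 0.0862), Oog2 (0.83 ± 0.38, adjusted p = 0.143) and Oog1 (0.26 ± 0.35, adjusted p = 0.744) did not pass the test.

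In the cKO x HET cross it was litter 1 that was higher. Omt2a was at 11.88 to 12.29 log2 RPM in litter 1 and at 9.63 to 11.48 in litter 2, and Omt2b at 12.44 to 12.70 and 9.85 to 11.88. The litters did not overlap for this pair, whichever genotype the embryos had, nor for 2.22% of all genes tested, 1.15% with litter 2 lower. With genotype in the model, litter 2 minus litter 1 was -1.38 ± 0.22 in Omt2a (limma adjusted p = 0.000101) and -1.74 ± 0.21 in Omt2b (adjusted p = 2.18e-06), and these 2 of 6 members were called, both lower, where 5.91% of all genes were called and 3.11% were called lower. The exact permutation test, which leaves out genotype, gave p = 0.000311 for both, again the smallest possible. The same exact permutation test gave p = 0.00342 for Oog2 and 0.0187 for Oog3. Oog3 (-0.86 ± 0.29, adjusted p = 0.0628), Oog2 (-1.18 ± 0.41, adjusted p = 0.0789), Oog1 (-1.18 ± 0.54, adjusted p = 0.189) and Oog4 (-1.24 ± 0.70, adjusted p = 0.319) did not pass. With a common lowest value the same pair was called (adjusted p = 0.0300 for Omt2a and 0.0150 for Omt2b), among 3.41% of all genes. Among HOM embryos alone the difference was -1.40 in Omt2a (adjusted p = 0.00252) and -1.70 in Omt2b (adjusted p = 0.000235).

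Between the control litters no member was called. Oog1 was at 7.19, 7.51, 8.32 and 9.12 log2 RPM in the 4 embryos of litter 2 and ran from 5.30 to 7.47 with a median of 6.58 in the 10 of litter 1. The litters overlapped, and the difference was 1.39 ± 0.41 (limma adjusted p = 0.114). Of the 6 members 0 were called, with 0.689% of all genes called. An unadjusted p under 0.05 was reached by 1 member (Oog1) and by 2127 of the 16412 genes tested. Voom called 1 member and 1.21% of all genes. The litters differed by 0.26 ± 0.26 in Oog3, 0.28 ± 0.33 in Omt2a and 0.64 ± 0.33 in Omt2b (adjusted p = 0.740, 0.797 and 0.418). Embryo WT-k of litter 2 had the highest Oog1 (9.12) and the lowest Omt2a (9.23) and Omt2b (9.81) of all 44 embryos, and no Oog4 reads. Without it the litters differed by 1.24 in Omt2b (adjusted p = 0.0304), which was then called, and by 1.03 in Oog1 (adjusted p = 0.471).

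Permutation tests of single members were run in 6 comparisons, 36 tests in all, and are not adjusted for their number. They were not run over all genes. By limma, an unadjusted p under 0.05 was reached by 6531 of 16412 genes in HET1, 1565 in HET2 and 3469 in HOM against WT embryos. Between litters it was reached by 4375 genes in the cKO x WT, 3476 in the cKO x HET and 2127 in the control cross. Of the 36 permutation tests, 16 gave p under 0.05. Beside those given above, these were Oog2 between the cKO x WT litters (exact permutation p = 0.0441), Oog1 between the control litters (exact permutation p = 0.00799), Oog3, Omt2a and Omt2b in HET2 against WT embryos (exact permutation p = 0.0055, 0.0322 and 0.0224), Oog1, Omt2a and Omt2b in HET1 against WT embryos (permutation p = 0.0179, 0.0347 and 0.0139) and Oog1 in HOM against WT embryos (permutation p = 0.0425).

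The 4 groups accounted for 20.6% of the variance of Omt2b over the 44 embryos and the 6 litters for 66.3%. The shares were 16.6% and 54.8% for Omt2a, 11.8% and 50.1% for Oog3, 19.2% and 37.3% for Oog1, 4.26% and 21.2% for Oog2 and 4.31% and 16.0% for Oog4. A larger share for 6 litters than for 4 groups is in part given by their number. Each litter belongs to 1 cross, and the parents, the time of collection and the handling of a mating cannot be told apart.

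**Figure D3:**
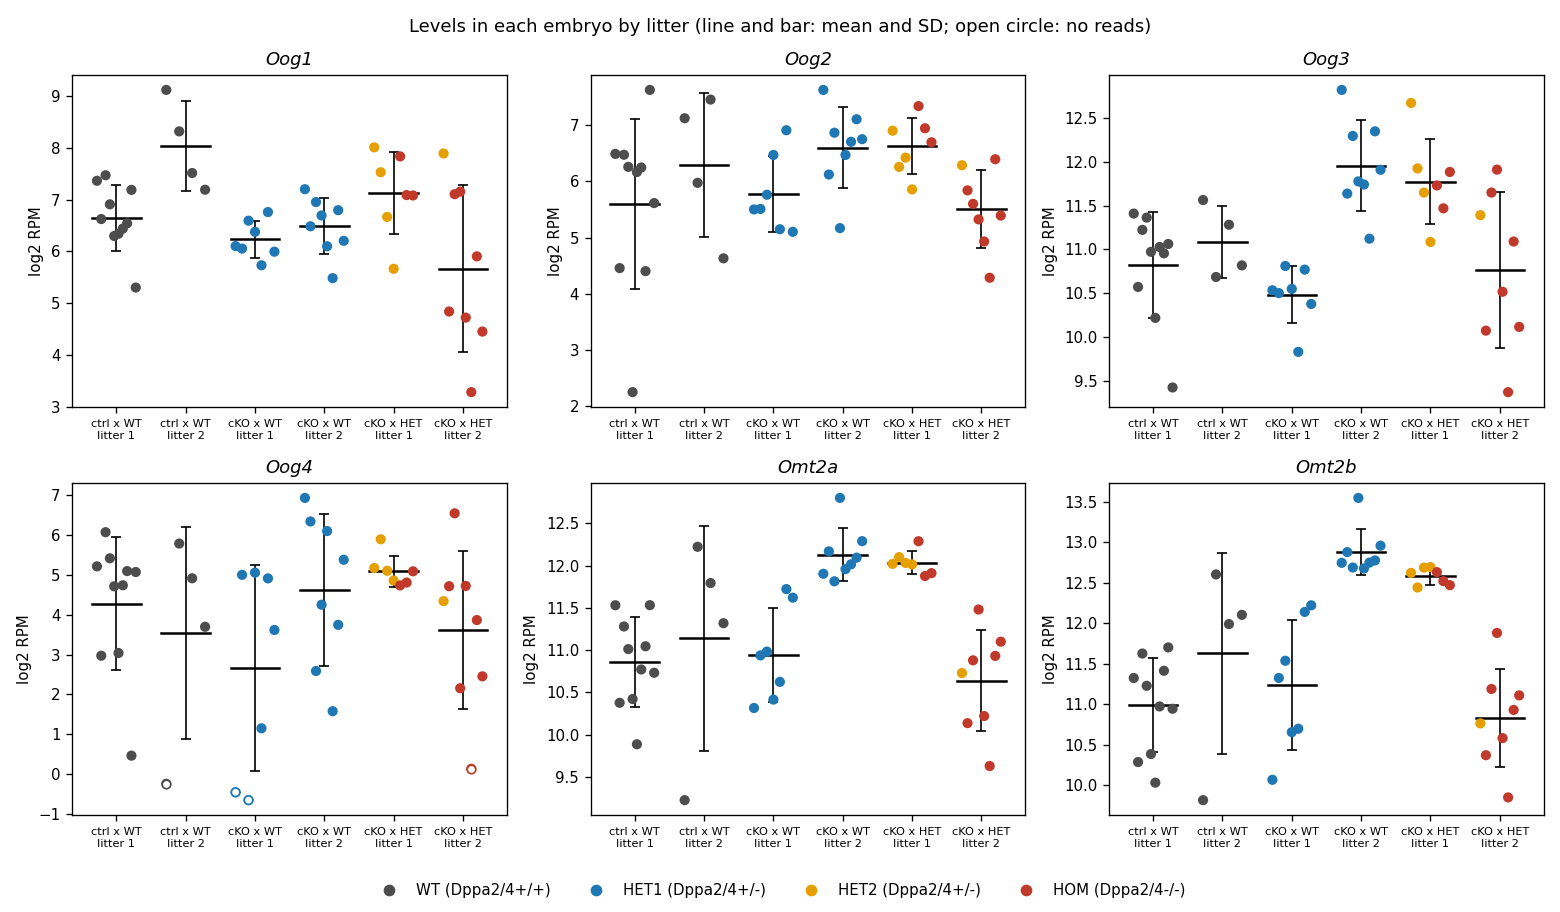
Level of each gene in log2 RPM in each of the 44 embryos, by litter and coloured by group, with litter means and SDs and open circles for embryos without reads. For Omt2a and Omt2b, litter 2 of the cKO x WT cross and litter 1 of the cKO x HET cross lie high, and HET2 and HOM littermates lie together.

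Of 30 other oocyte genes, 29 were tested, and 13 were higher and 1 lower in litter 2 of the cKO x WT cross (median difference 0.99 log2, against -0.12 over all genes tested, of which 4.55% were called higher and 10.6% lower), while 9 were lower and 0 higher in litter 2 of the cKO x HET cross (median -1.01, against 0.09, with 3.11% of all genes called lower). Bmp15, a growth factor of the oocyte, differed by 0.99 ± 0.25 (limma adjusted p = 0.00328) and -1.88 ± 0.34 (adjusted p = 0.000609), and Dppa3, a maternal factor that protects DNA methylation, by 0.47 ± 0.19 (adjusted p = 0.0918) and -0.01 ± 0.27 (adjusted p = 0.984). The summed level of the 7 two-cell markers, which was not tested and overlapped between litters, had medians of 569 and 1082 RPM in litters 1 and 2 of the cKO x WT cross and 754 and 482 RPM in those of the cKO x HET cross, and that of the 5 oocyte markers 2197 and 3450 RPM and 2228 and 2124 RPM. Median depth was 663861 and 524828 reads and 1108889 and 747523 reads. Their part in the differences of the members was not tested. Between genotypes, 17 of the 29 oocyte genes were higher and 0 lower in HET1 than in WT embryos, where 21.4% of all genes were called higher (median 1.26, against 0.61 over all genes). With a common lowest value 9 of the 29 and 2.49% of all genes were called higher. With litter as a random effect 0 of the 29 were called by limma, and the adjusted p of Dppa3 went from 0.00896 to 0.145. In that fit 16 of the 29 and 3471 of the 16412 genes tested had an unadjusted p under 0.05. By limma and by voom 0 were called in HET2 embryos, in HOM embryos and between HET2 and HOM. There 8, 11 and 2 had an unadjusted p under 0.05 by limma, as did 1565, 3469 and 912 of the 16412 genes tested. The medians were 0.93, 0.95 and 0.50, against 0.07, 0.49 and 0.34 over all genes. The control litters also gave 0 calls by limma and by voom. By limma 9 had an unadjusted p under 0.05, as did 2127 of the 16412 genes.

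Of 15 listed genes of the PRAME family beyond the oogenesins, all tested, 4 were higher and 1 lower in litter 2 of the cKO x WT cross (median 0.83, against -0.12 over all genes, of which 4.55% were called higher and 10.6% lower), and 4 were lower and 0 higher in litter 2 of the cKO x HET cross (median -0.72, against 0.09, with 3.11% of all genes called lower). C87414, the most abundant of them, differed by 1.42 ± 0.26 (limma adjusted p = 8.54e-05) and -1.36 ± 0.36 (adjusted p = 0.0181), in the direction of the members called there. Pramel7, which is known for its part in naive pluripotency, differed by -1.13 ± 0.33 in the cKO x WT litters (adjusted p = 0.0137), opposite to Oog3, and by -1.13 ± 0.24 between HET1 and WT embryos (adjusted p = 0.00202). Between HET1 and WT embryos 1 of the 15 was higher and 3 were lower (median 0.04, against 0.61 over all genes). Over all genes 21.4% were called higher and 3.35% lower. Fitted with a random litter effect, 0 of the 15 were called by limma, and Pramel7 had an adjusted p of 0.122. In that fit 4 of the 15 and 3471 of the 16412 genes tested had an unadjusted p under 0.05. By limma and by voom 0 were called in HET2 embryos, in HOM embryos, between HET2 and HOM and between the control litters. There 4, 1, 0 and 1 had an unadjusted p under 0.05 by limma, as did 1565, 3469, 912 and 2127 of the 16412 genes tested.

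The closest relations between members within group and litter were those of Omt2a with Omt2b and of Oog1 with Oog3. Over the 44 embryos Omt2a and Omt2b had Pearson's r = 0.971 and Spearman's rho = 0.957 (permutation p = 1e-05 and 1e-05, the smallest that 100000 permutations can give; Benjamini-Hochberg adjusted over 15 pairs 3.75e-05 and 1e-04). After the mean of each group within each litter had been removed, r was 0.953 and rho 0.952 (adjusted 7.5e-05 and 7.5e-05), and without the 2 embryos farthest from the median it was 0.936. The pair shares the stretches of sequence given above, and their part in this value was not tested. Oog1 and Oog3, on different chromosomes, had r = 0.634 and rho = 0.613 over all embryos (adjusted 3.75e-05 and 0.000113), and r = 0.882 and rho = 0.819 within group and litter (adjusted 7.5e-05 and 7.5e-05), or 0.839 without the 2 farthest. Oog1 and Oog2 had r = 0.393 and rho = 0.455 within group and litter (permutation p = 0.00659 and 0.00412, adjusted 0.033 and 0.0155).

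Between the families, relations that passed over all embryos did not pass within group and litter. Oog3 had r = 0.616 with Omt2a (rho = 0.658) and 0.650 with Omt2b (rho = 0.663) over all embryos (adjusted 3.75e-05 for both r and 1e-04 for both rho), and 0.249 (rho = 0.290) and 0.261 (rho = 0.270) within group and litter, where the adjusted permutation p was 0.234 and 0.207 for r and 0.171 and 0.182 for rho. Within group and litter, the adjusted p of r was under 0.05 for Omt2a and Omt2b, Oog1 and Oog3, and Oog1 and Oog2 among the 15 pairs, and that of rho also for Oog2 and Oog3 (rho = 0.536, adjusted permutation p = 0.0025). Reads of all members share the depth of their library.

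The order of Oog1 and Oog3 between litters did not follow this tight relation within them. The difference Oog3 minus Oog1 in log2 RPM was 4.01 to 4.45 in litter 1 and 5.08 to 5.70 in litter 2 of the cKO x WT cross, with no overlap, and the means differed by 1.21 (exact permutation p = 0.000311, adjusted over 12 ratio comparisons 0.000932). In the control cross it was 3.75 to 4.67 in litter 1 and 2.37 to 3.77 in litter 2, with a slight overlap and a difference of -1.12 (exact permutation p = 0.004, adjusted 0.00799). It was larger by 1.18 in HOM (5.03 ± 0.69, SD, n = 10) and by 1.04 in HET1 (4.90 ± 0.66, n = 15) than in WT embryos (3.85 ± 0.69, n = 14), with permutation p = 8e-05 and 0.00026 (adjusted 0.000932 for both), and by 0.74 in HET2 embryos (4.59 ± 0.72, n = 5, exact permutation p = 0.0452, adjusted 0.0603). Between the cKO x HET litters it differed by 0.45 (exact permutation p = 0.233, adjusted 0.254). Among the HOM embryos it was 4.36 ± 0.45 in litter 1 (SD, n = 3) and 5.32 ± 0.56 in litter 2 (n = 7). These permutations treat embryos of a litter as independent, and within WT the litters differed as much as the genotypes did. The difference Omt2b minus Omt2a was 0.75 ± 0.07 in litter 2 and 0.29 ± 0.30 in litter 1 of the cKO x WT cross (exact permutation p = 0.000311, adjusted 0.000932), 0.20 ± 0.16 and 0.55 ± 0.15 in the cKO x HET cross (exact permutation p = 0.00218, adjusted 0.00522) and 0.49 ± 0.26 and 0.13 ± 0.19 in the control cross (exact permutation p = 0.018, adjusted 0.027). In each cross the litter with the higher mean of Omt2a and Omt2b had the larger difference, and WT-k, the embryo lowest in both genes, had 0.59. It was larger by 0.30 in HET1 than in WT embryos (permutation p = 0.0094, adjusted 0.0161), and differed by 0.23 in HET2 (exact permutation p = 0.113, adjusted 0.136) and by 0.07 in HOM embryos (permutation p = 0.461, adjusted 0.461). Both ratios were picked after their values had been seen.

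**Figure D4:**
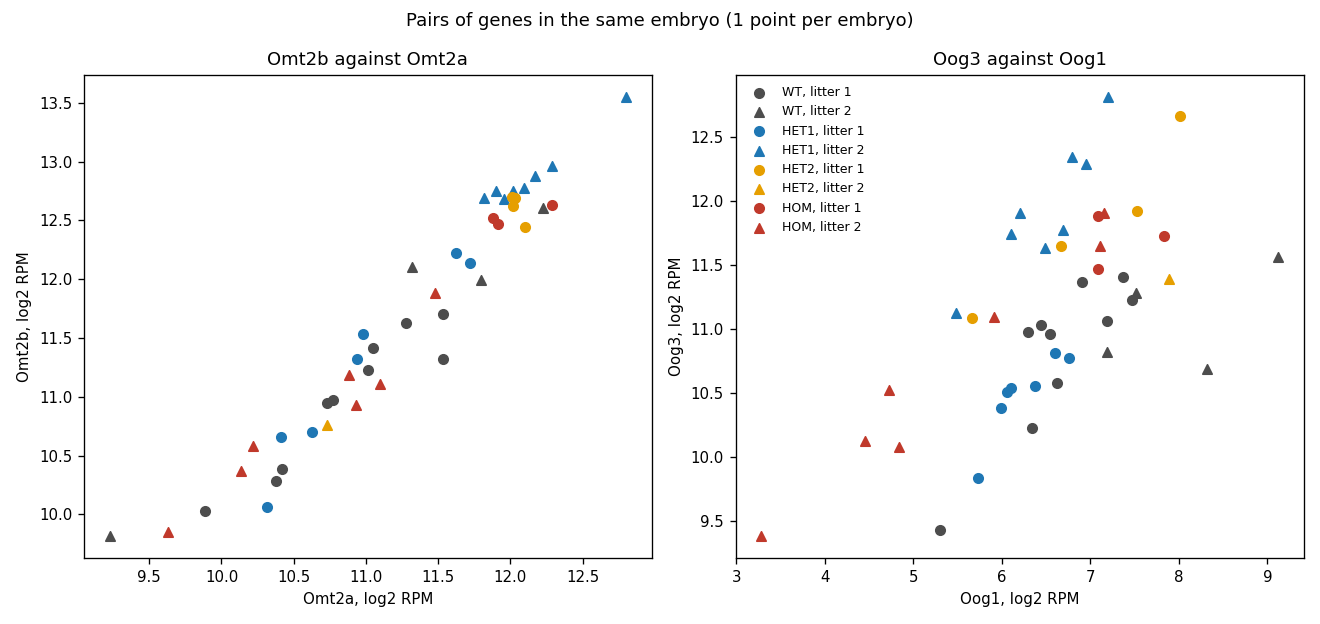
Log2 RPM of Omt2b against Omt2a (left) and of Oog3 against Oog1 (right), with 1 point per embryo, colours for groups and shapes for litters. Omt2a and Omt2b lie along 1 line over all embryos, whereas the HET1 embryos of litter 2 lie above those of litter 1 in Oog3 at similar Oog1.

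The genes whose levels were most like each member over the 44 embryos were ranked by Spearman's rho among genes with a mean of at least 3 log2 RPM. For Omt2a these were Omt2b (0.957), Immp1l (0.907) and Wee2 (0.887), the last an oocyte kinase, and for Omt2b they were Omt2a, Immp1l (0.931) and Tcl1b4 (0.895). Oog1 was most like Gm10436 (0.848), with which it shares sequence, Ireb2 (0.840) and Wdr26 (0.829), and Oog3 was most like E2f5 (0.848), Paip1 (0.845) and Cnot7 (0.844), a subunit of the deadenylase complex that shortens mRNA tails. Oog2 was closest to Mllt3 (0.737), Pan3 (0.733), part of another deadenylase, and Khdc1b (0.710), and Oog4 to Styk1 (0.766), Cep85l (0.653) and Phospho2 (0.648). After centring within group and litter, 2 of the 3 were the same genes for Omt2a, Omt2b and Oog4, 1 for Oog1 and Oog2, and 0 for Oog3, whose most similar gene was then Oog1 (0.819).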

How the data were processed

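Single two-cell embryos were profiled by Smart-seq2 with Nextera XT libraries and paired-end reads. Per the submitters' processing notes and the methods, the authors used Trim Galore 0.6.5, cutadapt 2.3 and HISAT2 2.1.0 with GRCm38, removed alignments of mapping quality under 20 and quantified exons in SeqMonk, ignoring strand. The authors deposited log2 RPM. A gene with 0 reads carries the log2 of 0.9 read in its library; from this, depths and reads were recovered (99.9997% were whole within 0.05 read).

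The 16412 genes averaging 0 log2 RPM or more were tested with limma 3.58.1 (eBayes with trend, R 4.3.3), Benjamini-Hochberg adjustment and a threshold of 0.05. WT, HET1, HET2 and HOM embryos formed 1 model. HOM minus HET2 had litter as a term, and the cKO x HET litters had genotype. Embryos of 1 mating are not independent, and p-values measure the spread between embryos. Permutation tests and correlations (scipy 1.17.1) used 100000 resamples or exact enumeration. Centred correlations were permuted within each group of each litter. Scripts were tested on simulated data. A count model had been planned for count files only; voom on recovered reads took its place. RPKM used the union of exons in GENCODE vM21. Promoters came from RefSeq (GRCm38.p6), where 6 of 6 genes matched.

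The genes, lists and tests were chosen with earlier results of these data known. Named genes were the 6 members, the 3 genes most like each, and the 2 most abundant of each list; Gm10436, Gm2042, Gm13084, Gm4350, Gata4 and Sox17 were named after their values were seen. Alternatives covered a common lowest value, 1 RPM added before the log, the filter, centring, voom, litter as a random effect, mating number as a block, and litters or embryos left out.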

Additional observations from a re-analysis of the deposited data

Results flagged for a closer look

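Of 48 checks of a gene within a group or a litter of 4 to 10 embryos, 3 found an embryo farther from the rest than Dixon's limit, where chance alone gives about 1 in 20. In litter 2 of the cKO x WT cross, embryo HET1-k had Omt2b at 13.55 log2 RPM (5673 reads), above the other 7. Embryo HET2-e, the only HET2 embryo of litter 2 of the cKO x HET cross, had Omt2a at 10.73 log2 RPM (2929 reads) and Omt2b at 10.76 (3000 reads), below the 4 HET2 embryos of litter 1. Its 7 HOM littermates had Omt2a at 9.63 to 11.48 and Omt2b at 9.85 to 11.88. Genotype aside, the value of HET2-e thus lay inside the range of its litter.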

How the results depend on the processing

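The differences of Omt2a, Omt2b and Oog3 between cKO x WT litters were called under each of 6 alternatives (1.08 to 1.53, 1.61 to 1.99 and 1.47 to 1.82), and those of Omt2a and Omt2b between cKO x HET litters under each of 7 (-1.45 to -1.38 and -1.82 to -1.67). The HET1 calls were not as firm: Omt2a was called under 3 of 14 alternatives (adjusted p from 0.000845 to 0.991) and Omt2b under 6. Against 2 members called, 0 were called with a common lowest value, with 1 RPM added, after re-centring, by voom, with litter as a random effect, without litter 1 of the control cross, without litter 2 of the cKO x WT cross and in embryos of at least 500000 reads, and 1 with a mean of at least 3 log2 RPM and without WT-k. In that order, these settings called 4.54%, 4.7%, 18.3%, 15.4%, 0%, 0.774%, 0.816%, 1.89%, 14.2% and 26.6% of all genes. In HOM embryos 1 (Oog1) was called without litter 1 of the control or of the cKO x HET cross, with 1.63% and 1.02% of all genes called. Without litter 1 of the cKO x WT cross 3 were called in HET1 embryos, all higher, where 25.8% of all genes were called and 17.8% were called higher. Between cKO x WT litters re-centring gave 5 and no filter 4 against 3, with 14.7% and 10.6% of all genes called. Between cKO x HET litters no filter, a mean of at least 3 log2 RPM and voom each gave 3 against 2, with 4.51%, 13.5% and 6.65% of all genes. Between control litters voom gave 1 (1.21% of all genes) and leaving out a WT embryo 0 to 1 (0.104% to 1.68%). Apart from the litter left out, the cause was not tested. Genes called over the whole table ranged from 0 (litter as a random effect) to 11973 (no filter) against 4054 for HET1 minus WT, 0 to 86 against 2 for HET2 minus WT, 2 to 267 against 12 for HOM minus WT, 0 to 12 against 2 for HOM minus HET2, 324 to 1111 against 970 for the cKO x HET litters and 0 to 275 against 113 for the control litters. Re-centring moved the split of HET1 calls from 3505 higher and 549 lower to 2189 and 812, and that of the cKO x WT litters from 746 and 1735 to 1359 and 1060.

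The labels tie mating numbers to no animal, and they were not taken to pair embryos of different crosses: over 16412 genes, the litter differences of cKO x WT correlated at -0.62 with those of cKO x HET and at 0.34 with those of the control cross. With the number as a block, 1 member was called in HET1 embryos, 0 in HET2 and 0 in HOM embryos, where Oog3 was at -0.081. Of all genes, 21.4%, 0.0122% and 0.14% were called in the same fits. Without the litter block, HOM minus HET2 was -0.47 in Oog2, and 0 members and 0.0183% of all genes were called.

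No difference called with the settings of the report changed sign; those that did were not called there. For HET1 minus WT, leaving out litter 1 of the control cross gave Oog2 -0.082 and Oog4 0.16, litter 1 of the cKO x WT cross Oog4 0.55, and its litter 2 Oog2 -0.026 and Oog3 -0.42. For HET2 minus WT, Oog1 was -0.17 with litter as a random effect, -0.88 without litter 1 of the control cross, -0.077 without litter 2 of the cKO x HET cross and -0.11 to 0.48 without 1 embryo; without litter 1 of the cKO x HET cross Omt2a was -0.21 and Omt2b -0.41. For HOM minus WT, re-centring gave Oog2 -0.23, Oog3 -0.23, Omt2a -0.21 and Omt2b -0.13, and litter as a random effect Oog4 0.026. Leaving out litter 1 of the control cross gave Oog2 -0.42, Oog3 -0.11, Oog4 0.38, Omt2a -0.095 and Omt2b -0.28, litter 1 of the cKO x HET cross Oog2 -0.40, Oog3 -0.22, Omt2a -0.31 and Omt2b -0.33, its litter 2 Oog1 0.29 and Oog4 0.81, and WT-k Omt2a -0.026. For HOM minus HET2, Oog2 was -0.19 after re-centring, -0.89 without litter 1 and -0.035 to 0.63 without 1 HET2 embryo, Omt2b 0.081 without litter 1, 0.027 in embryos of at least 500000 reads and -0.071 to 0.0026 without 1 HET2 embryo, Omt2a 0.072 by voom and 0.014 in embryos of at least 500000 reads, and Oog1 0.37 without litter 2 and -0.98 to 0.37 without 1 HET2 embryo. Between control litters, leaving out 1 WT embryo gave Oog4 -1.49 to 0.52 and Omt2a -0.080 to 0.92. Leaving out WT-k from the comparisons with WT embryos and the limit of 500000 reads were chosen after seeing the data.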
